A study of Mus musculus with 8 samples.

Results

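The effector genes of natural killer (NK) cells and the genes of the interleukin-15 (IL-15) axis that sustains these cells, 10 in all (Gzma, Gzmb, Gzmc, Prf1, Nkg7, Il2rb, Eomes, Tbx21, Il15 and Il15ra), were followed in the mouse uterus just before embryos attach. The 10 genes were chosen by name with their differences between pregnant and pseudopregnant uterus already known, so those differences are given as a description and without a test. All 10 had 1 probe set, the group of probes that reads a gene on the array, with a single gene symbol, out of 19938 genes with such a probe set. An intensity filter, above the 40th percentile of the array on at least 4 of 8 arrays, kept 9 of the 10, with Gzmc below it. The pregnant group held uterine tissue of 4 young C57BL/6 females, virgin until then, mated with stud males, taken on day 3 at 22 h with the night of mating as day 0, showing no blue dye reaction and yielding blastocysts when flushed. The pseudopregnant group held uterine tissue of 4 such females mated with vasectomized males and taken at the same time, so the kind of male and the presence of embryos cannot be told apart. The labels do not say whether the pseudopregnant horns were flushed too, and they mention no sorting of cells. The samples are labelled as biological replicates and were picked by the submitters for RNA quality. The free-text description of all 8 samples, the 4 pseudopregnant ones included, reads "pregnant", and groups were taken from the titles.

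NK cells are lymphocytes that kill target cells by releasing granules that hold perforin, which makes pores, and granzymes, proteases that enter through them. Interleukin-15 is presented by neighbouring cells on its own receptor chain, Il15ra, to the shared chain Il2rb and the common gamma chain on NK cells, and it acts through the kinases Jak1 and Jak3 and the transcription factor Stat5. Eomes and Tbx21 are T-box transcription factors that NK cells need to mature. In mice, uterine NK cells are rare before implantation and become abundant in the decidua, the transformed lining of the uterus, where they take part in the remodelling of its arteries.

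The values are log2 intensities of 8 arrays that differed little in overall level, with correlations of 0.984 to 0.994 between arrays of a group. The first principal component (46.1% of the variance) kept pregnant from pseudopregnant arrays, and pregnant replicate 2 and pseudopregnant replicate 1 lay at its ends. RNA integrity numbers were 6.9 to 8.7. The uterine markers, 11 of 11 of them above background, had means of 8.49 to 8.60 on the pregnant and 8.55 to 8.60 on the pseudopregnant arrays, so the tissue carried its defining genes in both groups. With 4 arrays in each group, the number of arrays limits the precision of every value. In whole tissue, more NK cells and more RNA per NK cell cannot be told apart. Levels of different genes are not compared, since probe sets differ in how strongly they bind.

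The start regions of the cytotoxic genes are shown because 5 of them share a motif that the other promoters at hand lack. RefSeq promoter windows of 300 bases, from 250 before to 50 after a transcription start in the RefSeq table, were at hand for Gzma, Gzmb, Gzmc, Prf1, Nkg7, Eomes, Tbx21 and Il15ra, the last with 2 windows, which makes 9. No window was at hand for Il2rb and Il15. Letters in capitals mark the RUNX motif TGTGGT, the ETS core GGAAGT, the STAT motif TTCNNNGAA and the T-box motif AGGTGTG, each searched on both strands, and in the windows shown no 2 matches overlapped. The windows are on build GRCm38.p6 and run 5′ to 3′ on the strand of the gene, with Gzmb at chr14:56262285-56262584 (minus strand), Gzmc at chr14:56234608-56234907 (minus strand), Gzma at chr13:113100932-113101231 (minus strand), Prf1 at chr10:61297586-61297885 (plus strand) and Nkg7 at chr7:43436888-43437187 (plus strand). The Gzmc, Prf1 and Il15ra windows follow a start inside the annotated span of the gene rather than its outermost end.

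Gzmb: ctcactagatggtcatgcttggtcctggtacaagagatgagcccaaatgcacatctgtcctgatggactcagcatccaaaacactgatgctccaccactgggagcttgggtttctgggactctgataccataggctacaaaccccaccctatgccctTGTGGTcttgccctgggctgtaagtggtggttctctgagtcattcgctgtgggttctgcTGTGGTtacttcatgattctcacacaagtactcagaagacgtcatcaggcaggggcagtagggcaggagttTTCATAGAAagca
Gzmc: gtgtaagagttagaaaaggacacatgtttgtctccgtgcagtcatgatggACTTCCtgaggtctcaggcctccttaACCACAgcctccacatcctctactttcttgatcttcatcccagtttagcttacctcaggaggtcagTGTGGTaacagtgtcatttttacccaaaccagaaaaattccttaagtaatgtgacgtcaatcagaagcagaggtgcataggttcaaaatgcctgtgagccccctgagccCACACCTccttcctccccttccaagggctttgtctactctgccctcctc
Gzma: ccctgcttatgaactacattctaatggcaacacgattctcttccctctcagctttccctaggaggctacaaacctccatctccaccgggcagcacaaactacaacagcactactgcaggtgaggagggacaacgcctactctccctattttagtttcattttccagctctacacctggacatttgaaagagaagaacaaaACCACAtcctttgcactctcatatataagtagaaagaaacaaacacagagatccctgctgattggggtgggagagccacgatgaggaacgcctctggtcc
Prf1: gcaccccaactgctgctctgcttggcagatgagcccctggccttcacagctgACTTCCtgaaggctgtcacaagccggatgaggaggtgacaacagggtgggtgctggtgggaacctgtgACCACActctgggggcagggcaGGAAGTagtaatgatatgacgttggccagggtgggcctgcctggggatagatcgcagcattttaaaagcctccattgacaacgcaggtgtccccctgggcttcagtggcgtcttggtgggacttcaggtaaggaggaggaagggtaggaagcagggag
Nkg7: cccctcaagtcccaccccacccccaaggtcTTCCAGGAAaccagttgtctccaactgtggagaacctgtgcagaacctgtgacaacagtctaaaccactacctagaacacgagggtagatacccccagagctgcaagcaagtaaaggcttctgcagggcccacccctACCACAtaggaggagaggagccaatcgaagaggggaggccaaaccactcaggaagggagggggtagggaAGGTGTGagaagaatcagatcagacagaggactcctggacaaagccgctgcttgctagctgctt

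The RUNX motif is made of the letters bound by Runx factors such as Runx3. It stood in 5 of the 9 windows and in 16.8% of all 32851 promoter windows of this length. Those 5 are the granzyme, perforin and Nkg7 windows shown, which were picked because they hold the motif. Gzmb held it at -93 and -34 and Gzmc at -174 and -108, counted from the first transcribed base as 0. The ETS core stood in 4 of the 9 windows, those of Gzmc, Prf1, Tbx21 and 1 window of Il15ra, and in 23.8% of all windows. The T-box motif stood in 3, those of Gzmc, Nkg7 and the other Il15ra window, against 5.8% of all, and the STAT motif in 2, those of Gzmb and Nkg7, against 8.3%. A match of letters is a description of the window and not a measured binding site.

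Gzmb encodes granzyme B, a protease that sets off cell death in the target. Its log2 intensities were 6.81, 8.21, 7.75 and 7.33 in pregnant replicates 1 to 4 and 5.85, 5.87, 5.83 and 6.51 in pseudopregnant replicates 1 to 4. The lowest pregnant value lay above the highest pseudopregnant one, and pseudopregnant replicate 4 stood well above the other pseudopregnant arrays. The means were 7.52 ± 0.60 and 6.02 ± 0.33 (SD, n = 4 each), a log2 difference of 1.51 ± 0.27 (SE) or 2.84-fold. Without single arrays the difference was between 1.28, without pregnant replicate 2, and 1.75.

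Gzmc encodes granzyme C, a relative from the same gene cluster that is made by strongly activated killer cells. Its values were 4.19, 6.31, 4.65 and 5.16 on the pregnant and 3.69, 4.15, 3.41 and 4.33 on the pseudopregnant arrays. The groups overlapped, because pregnant replicate 1 lay below pseudopregnant replicate 4, and pregnant replicate 2 was the 1 array on which the gene stood above the 40th percentile of its array, the line used to mark background (log2 5.23 to 5.32). The means were 5.08 ± 0.91 and 3.897 ± 0.42 (SD, n = 4 each), and the difference of 1.18 ± 0.39 (SE) has no exact size so near background. Without pregnant replicate 2 the difference was 0.77. The cluster holds close copies, Gzmd, Gzme, Gzmf, Gzmg and Gzmn, and how far these probe sets read one another is unknown.

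Gzma encodes granzyme A, a tryptase of the same granules. Its values were 5.65, 5.75, 5.45 and 5.18 on the pregnant and 4.84, 5.03, 4.91 and 5.52 on the pseudopregnant arrays. The groups overlapped through a low pregnant replicate 4 and a high pseudopregnant replicate 4, and the gene was above the background line on 3 pregnant arrays and 1 pseudopregnant array. Its difference was 0.43 ± 0.16 (SE), with means of 5.51 ± 0.25 and 5.07 ± 0.31 (SD, n = 4 each).

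Prf1 encodes perforin, the pore protein. It read 6.17, 6.31, 6.32 and 6.31 on the pregnant and 5.99, 5.63, 5.82 and 5.99 on the pseudopregnant arrays. The groups did not overlap and pregnant replicates 2, 3 and 4 were nearly equal, so the SD of the pregnant group was smaller than that of Gzmb. The difference was 0.42 ± 0.085 (SE), or 1.34-fold, from means of 6.28 ± 0.073 and 5.86 ± 0.17 (SD, n = 4 each).

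Nkg7 encodes a granule membrane protein needed for their release. Its values were 7.22, 8.03, 7.79 and 7.48 on the pregnant and 6.805, 6.42, 6.62 and 7.18 on the pseudopregnant arrays. The groups came within a few hundredths of each other, pregnant replicate 1 being just above pseudopregnant replicate 4. The means of 7.63 ± 0.35 and 6.76 ± 0.32 (SD, n = 4 each) differed by 0.87 ± 0.19 (SE), or 1.83-fold, and by 0.74 without pregnant replicate 2.

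**Figure D1:**
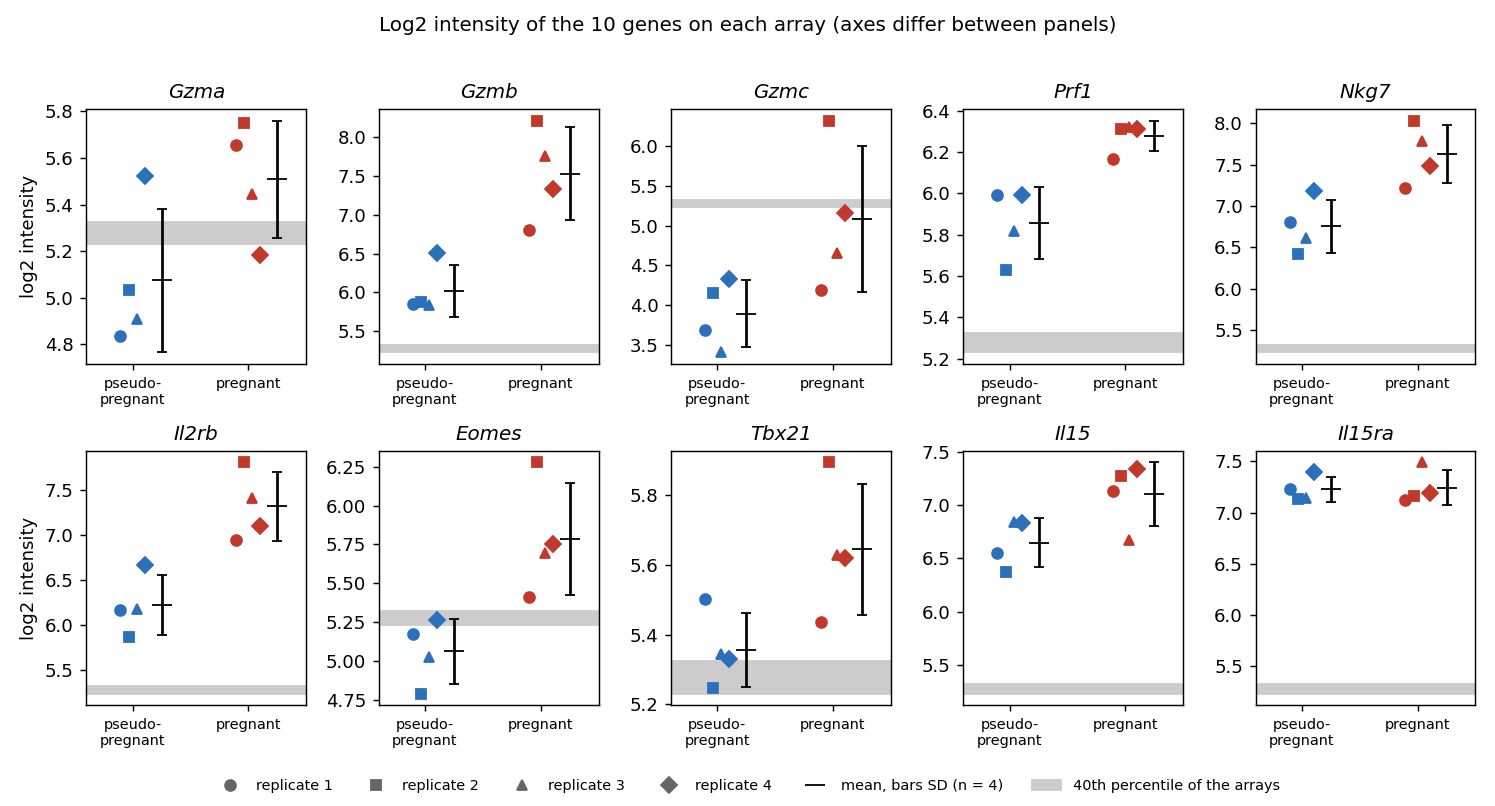
Log2 intensity (vertical axis, a separate scale in each panel) of the 10 genes on the 4 pseudopregnant (blue) and 4 pregnant (red) arrays, with a symbol for each replicate number, the mean and SD beside the points and a grey band over the 40th percentiles of the arrays, 5.23 to 5.32. Gzmb, Prf1, Nkg7, Il2rb and Eomes show no overlap of groups, pregnant replicate 2 (square) is highest for Gzmb at 8.21, and Il15ra lies at 7.12 to 7.49 in both groups.

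Il2rb encodes the chain that binds interleukin-15 and interleukin-2 on NK cells and carries the signal into the cell. Its log2 intensities were 6.95, 7.81, 7.42 and 7.11 in pregnant replicates 1 to 4 and 6.16, 5.86, 6.17 and 6.67 in pseudopregnant replicates 1 to 4. As for Gzmb, the groups did not overlap, pregnant replicate 2 was highest and pseudopregnant replicate 4 was the highest of its group. The means were 7.32 ± 0.38 and 6.22 ± 0.33 (SD, n = 4 each), with a difference of 1.10 ± 0.20 (SE) or 2.15-fold. Without single arrays it lay between 0.94 and 1.25.

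The T-box factor Eomes read 5.41, 6.28, 5.69 and 5.75 on the pregnant and 5.17, 4.79, 5.02 and 5.27 on the pseudopregnant arrays. It was above the background line on all 4 pregnant arrays and on 0 of the pseudopregnant ones, so it passed the filter through the pregnant group alone and its difference of 0.72 ± 0.17 (SE), from means of 5.78 ± 0.36 and 5.06 ± 0.21 (SD, n = 4 each), has no exact size. Eomes also marks the trophoblast of the blastocyst. Of 8 blastocyst markers, Cdx2, Elf5, Nanog, Pou5f1, Tfap2c and Zfp42 lay below the background line on all 8 arrays, and 2, Krt7 and Dppa5a, passed the filter without passing the test (limma; at an unadjusted p under 0.05 Krt7 was higher). Both Krt7 and Dppa5a stood above the background line on all 4 pseudopregnant arrays too, so in this tissue they do not mark embryos alone. The mean of the 8 was 4.85 to 4.96 on the pregnant and 4.83 to 5.10 on the pseudopregnant arrays.

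Tbx21, which encodes the factor T-bet, read 5.44, 5.89, 5.63 and 5.62 on the pregnant and 5.50, 5.25, 5.34 and 5.33 on the pseudopregnant arrays. The groups overlapped at pregnant replicate 1 and pseudopregnant replicate 1, and all 8 values lay only slightly above the background line. The difference was 0.29 ± 0.094 (SE), from means of 5.64 ± 0.19 and 5.35 ± 0.11 (SD, n = 4 each), and 0.21 without pregnant replicate 2.

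Il15 encodes the cytokine itself, made by stromal and myeloid cells as background more than by NK cells. Its values were 7.13, 7.27, 6.67 and 7.335 on the pregnant and 6.55, 6.37, 6.84 and 6.84 on the pseudopregnant arrays. The groups overlapped because pregnant replicate 3, an array with high Gzmb and Nkg7, lay below pseudopregnant replicates 3 and 4. The means were 7.10 ± 0.30 and 6.65 ± 0.23 (SD, n = 4 each), a difference of 0.45 ± 0.15 (SE) or 1.37-fold, with a range of 0.36 to 0.60 without single arrays.

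Il15ra, which holds interleukin-15 on the cells that present it, read 7.12, 7.165, 7.49 and 7.19 on the pregnant and 7.23, 7.13, 7.145 and 7.40 on the pseudopregnant arrays. The groups lay on top of each other, with 1 high array in each, pregnant replicate 3 and pseudopregnant replicate 4. The difference was 0.02 ± 0.092 (SE), and its sign turned to -0.01 with a repeated quantile normalization and to -0.07, -0.01 and -0.01 without pregnant replicate 3 and pseudopregnant replicates 2 and 3. The other 9 genes had a difference above 0 under every setting that gave them a value.

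The 10 genes had 10 differences above 0, that of Il15ra turning below 0 under the settings just named, and the median over the 9 kept was 0.45, against 0.0019 over all 17491 kept probe sets. In the limma fit over all of those, 3 of the 9, Gzmb, Prf1 and Il2rb, had an adjusted p under 0.05 and a higher pregnant level, where 1.41% of the kept probe sets did (1.82% in either direction), and 5 had groups that did not overlap with the pregnant group higher, where 9.23% did. Since the genes were picked with this comparison known, these counts describe the choice and are no evidence. The count of 3 became 2 without pregnant replicate 1 (Gzmb and Il2rb), 1 without pregnant replicate 2 (Gzmb) and 4 without pseudopregnant replicate 4 (Nkg7 added), and 0 without any 1 of the other 5 arrays, while 7 or 8 of the 9 had an unadjusted p under 0.05 in limma whichever array was left out, as did 17.9% to 23.4% of all kept probe sets in those fits (23.7% with all arrays). By size of difference among 13038 genes, Gzmb was number 5 from the top, Il2rb 8 and Nkg7 22. Il15 followed at 204, Prf1 at 244 and Il15ra at 5938, and no rank is given for Eomes, Gzma, Gzmc and Tbx21, whose levels were near background.

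The genes were then compared by the order of the arrays inside each group, which the difference between groups does not use. Each group of 4 arrays has 6 pairs, 12 in all, and for every pair of genes the count of array pairs that both genes put in the same order was taken. Among the 8 genes of the NK cell itself, the 28 pairs of genes had a median of 9 of the 12 in the same order, with a range of 4 to 11. Nkg7 shared the order of 11 array pairs with Il2rb and with Eomes and of 10 with Gzmb, and Gzmb shared 11 with its cluster neighbour Gzmc. Gzma and Prf1 were the least alike, at 4. Il15 shared 5 to 8 with the 8 genes, with a median of 6.5 and the lowest count for Gzmb, so inside a group the arrays with more Gzmb were often not those with more Il15. Il15ra, which differed by 0.02 between the groups, shared 5 to 11 with a median of 8.5, close to that among the 8 genes, the highest being Prf1. Arrays share everything that varies between animals, so these counts carry no p.

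**Figure D2:**
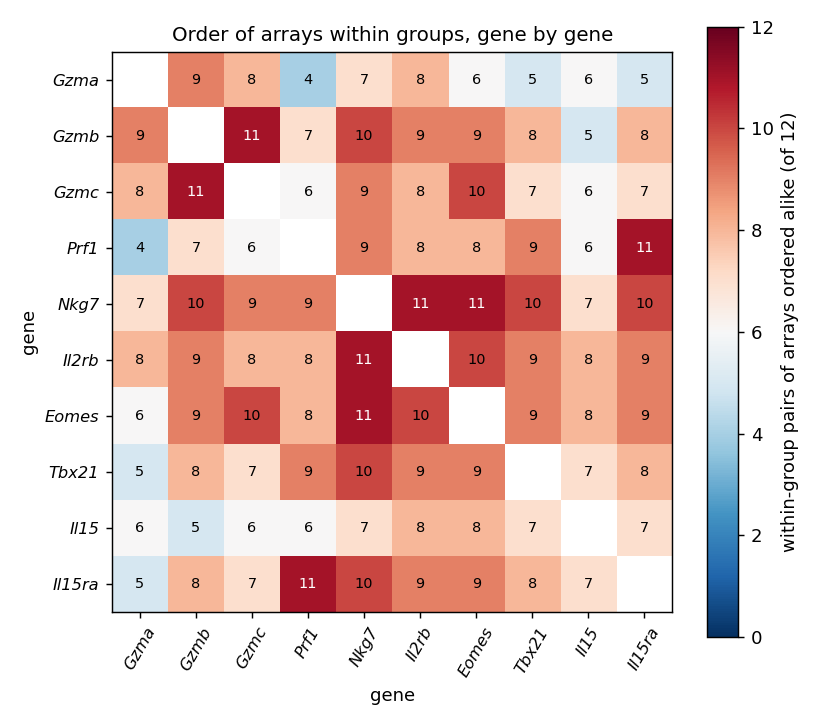
Count of within-group pairs of arrays, out of 12, that 2 genes put in the same order (colour and number), with the 10 genes on both axes. The block of Gzmb, Gzmc, Nkg7, Il2rb and Eomes, picked from these counts, holds 8 to 11, and the row of Il15 holds 5 to 8. Tbx21 and Il15ra each have 7 to 10 with the genes of that block, and Gzma with Prf1 has the lowest count, 4. Gzmc was near background.

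The genes whose standardised level over the 8 arrays was most like that of Gzmb were Dock2, Rbpj, Txk, Rab32 and Myo1f, with root mean square differences between the standardised profiles of 0.12 to 0.19. Dock2 is a regulator of leukocyte movement, Txk a kinase of T and NK cells and Myo1f a leukocyte myosin. No such role is given here for Rbpj and Rab32, and whether the 5 form a leukocyte set was not tested. On 4 pregnant and 0 pseudopregnant arrays Txk stood above the background line, so its order rests partly on values near background. Txk put the arrays in the same order as Gzmb in 28 of 28 pairs, Rbpj and Rab32 in 27, and Dock2 and Myo1f in 25, a likeness by which these genes were picked. The genes most like Il15 were Pgm3, Adap1, Etaa1, Fastk and Cyp20a1, at 0.21 to 0.30, with 28 of 28 pairs for Pgm3. The 5 neighbours of Gzmb and the 5 of Il15 had no gene in common. With lists of only 5 out of 13038 genes, this does not show how far the profiles of Gzmb and Il15 are related.

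Other genes of the granule were taken from a list of 21, of which 11 passed the filter. Set beside the 1.41% of all kept probe sets that rose, as for the lists below, 1 of these 11 rose and 0 fell. This was Ctsc, cathepsin C, the protease that activates granzymes, with values of 8.68, 8.84, 8.79 and 8.86 on the pregnant and 8.28, 8.24, 8.44 and 8.43 on the pseudopregnant arrays. The groups were well apart, with a difference of 0.44 ± 0.067 (SE, limma adjusted p = 0.023). Its call ended without pregnant replicate 4 (limma adjusted p = 0.053) and pseudopregnant replicates 1 (0.066) and 2 (0.052). Myeloid cells make cathepsin C as well, and 6 of 10 of the macrophage and dendritic cell genes tested rose too, as given with the leukocyte lists. Which cells the Ctsc difference came from was not tested.

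Ctsw, the lymphocyte cathepsin W, was 0.66 ± 0.18 (SE) higher with no overlap and did not pass (limma adjusted p = 0.070). Cst7, an inhibitor of cathepsins, differed by 0.36 (limma adjusted p = 0.15), and Srgn, the core protein that packs the granules, by 0.17 (0.27) and by 0.097 without pregnant replicate 2. The machinery of granule transport and fusion shared with other cells was close to equal, with Rab27a at 0.04, Stx11 at 0.06, Stxbp2 at -0.05 and Lamp1 at -0.01. The median over the 11 tested genes was 0.07. The other granzymes, Gzmd, Gzme, Gzmf, Gzmg, Gzmk, Gzmm and Gzmn, lay below the background line on all 8 arrays, as did Fasl and Ifng, so that for them no sizes are read. The difference between Gzmb and the shared granule genes was not tested.

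**Figure D3:**
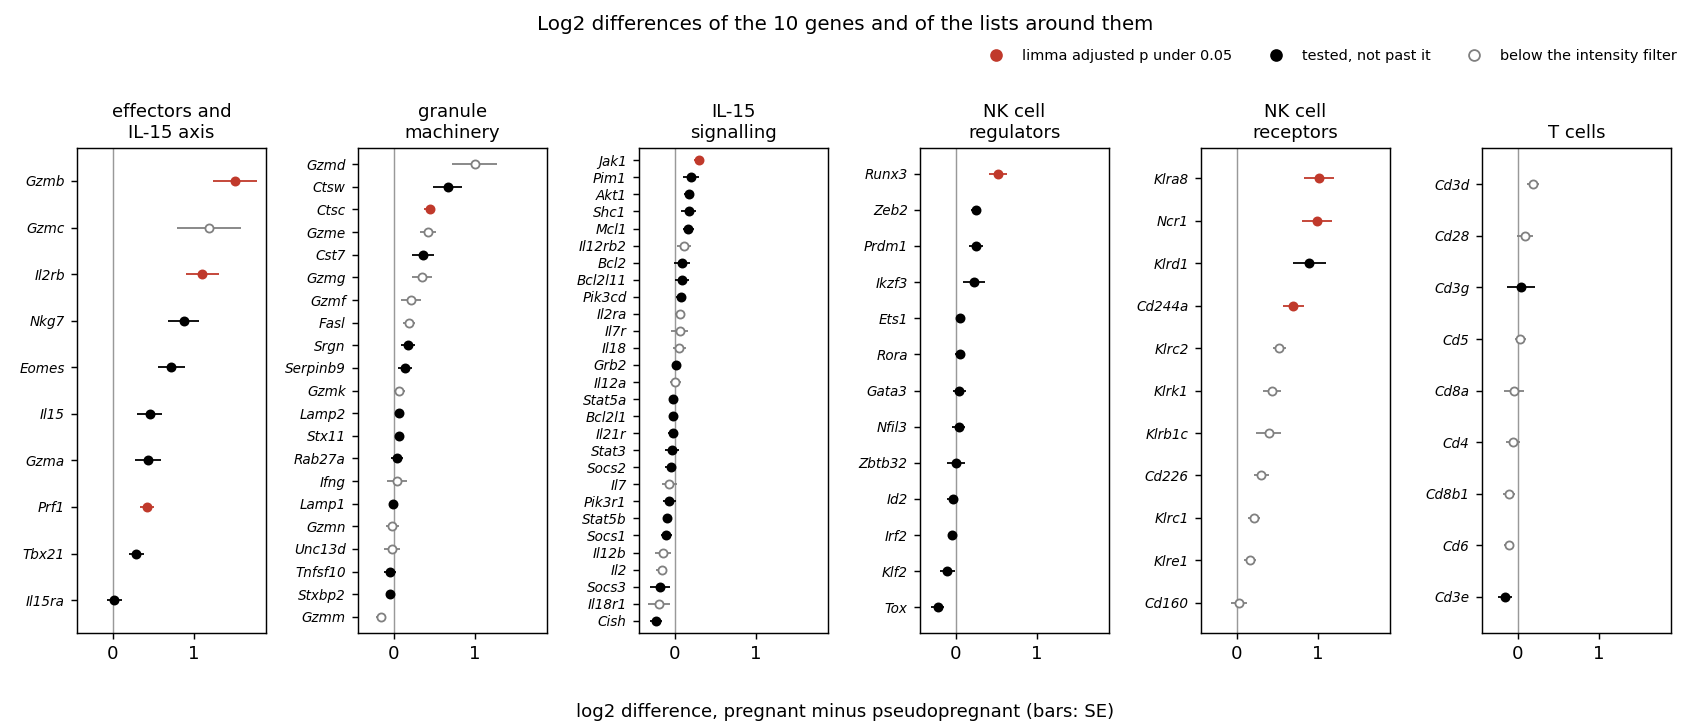
Log2 difference between pregnant and pseudopregnant uterus (horizontal axis) with its SE for each gene with a probe set, by list, on 1 shared scale. Red points had a limma adjusted p under 0.05, black points were tested and did not, and open points lay below the intensity filter; Gzmb stands at 1.51 and Il15ra at 0.02, and the IL-15 signalling list lies around 0 with Jak1 at 0.29 past the threshold.

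The list of interleukin-15 signalling and of related cytokines held 30 genes, 28 with a probe set and 19 kept, of which 1 rose and 0 fell. Jak1, the kinase bound to Il2rb, read 10.02, 10.07, 9.98 and 9.9985 on the pregnant and 9.71, 9.74, 9.62 and 9.82 on the pseudopregnant arrays. It was higher by 0.29 ± 0.056 (SE, limma adjusted p = 0.037) without overlap. This call ended when any 1 array other than pseudopregnant replicate 4 was left out, with limma adjusted p between 0.057 and 0.095, while the difference stayed between 0.26 and 0.33. Jak1 serves many cytokine receptors in most cell types.

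Akt1, a kinase of the survival branch, differed by 0.17 (limma adjusted p = 0.095) and the survival factor Mcl1 by 0.17 (0.18), or 0.10 without pseudopregnant replicate 1. Cish, an inhibitor that Stat5 induces, differed by -0.23 (limma adjusted p = 0.12). Stat5a and Stat5b differed by -0.02 and -0.09 and Bcl2 by 0.09. The list's median was -0.02, with 9 of the 19 above 0 and 10 below. The cytokines Il2, Il7, Il12a, Il12b and Il18 and the receptor chains Il2ra, Il7r, Il18r1 and Il12rb2 lay below the background line on all 8 arrays. The common gamma chain and Jak3 were not analysed here.

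Among transcription factors of NK and innate lymphoid cells, 13 of 16 were tested, and 1 rose and 0 fell. Runx3 read 6.36, 6.81, 6.58 and 6.55 on the pregnant and 5.99, 5.88, 6.06 and 6.31 on the pseudopregnant arrays. Whether it binds the promoters shown was not tested. The groups did not overlap but came close, and the difference was 0.52 ± 0.11 (SE, limma adjusted p = 0.047). The call ended without any 1 array other than pseudopregnant replicate 4 (limma adjusted p 0.052 to 0.12), with the difference between 0.44 and 0.60, and it is therefore marginal. Zeb2, a late factor of NK maturation, differed by 0.25 (limma adjusted p = 0.064), Prdm1 by 0.25 (0.13) and Tox by -0.22 (0.14), or -0.15 without pregnant replicate 2. Id2 and Nfil3, which the lineage needs from its start, differed by -0.04 and 0.04. The list's median was 0.05, with 9 of the 13 above 0.

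NK cell receptors served as markers of the cells themselves, and 4 of 11 with a probe set passed the filter. Of these, 3 rose, Ncr1 by 0.99 ± 0.18 (SE, limma adjusted p = 0.034), Klra8 by 1.01 ± 0.18 (0.033) and Cd244a by 0.70 ± 0.13 (0.035). Klrd1 was above the background line on 4 pregnant and 0 pseudopregnant arrays and passed the filter through the pregnant group alone. Its difference therefore has no exact size, and it enters the mean of the list with that limit. Ncr1 and Cd244a were each above that line on 4 pregnant and 2 pseudopregnant arrays. The sizes of their differences, and their part in the mean, are inexact as well. The remaining 7 lay below the background line on all 8 arrays. The mean of the 4 was 5.97, 6.59, 5.93 and 5.91 on the pregnant and 5.02, 5.01, 5.31 and 5.45 on the pseudopregnant arrays, so pregnant replicate 2 and pseudopregnant replicate 4 were again the highest of their groups. The receptor count fell to 2 without pregnant replicates 2 or 3, stayed at 3 without pseudopregnant replicate 4, and was 0 without any 1 of the other 5 arrays. It was 1 with a replicate block and 0 of 0 tested with the stricter filter. Without the filter it was 1 of 11, and that 1 was none of the 3 receptors above. Klra8, Ncr1 and Cd244a did not pass there (limma adjusted p = 0.059, 0.059 and 0.062). Klra8 belongs to a family of close copies, and which copy its probe set reads is uncertain.

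Granzymes, perforin and Il2rb are made by cytotoxic T cells too, so T cell genes were read on the same arrays. Of 9, Cd3e and Cd3g passed the filter and 0 passed the test (limma, 0 at an unadjusted p under 0.05), with differences of -0.15 and 0.04. Cd3d, Cd4, Cd8b1, Cd6 and Cd28 lay below the background line on all 8 arrays, and the mean of the 9 was 4.82 to 4.96 on the pregnant and 4.84 to 5.0021 on the pseudopregnant arrays. All 5 B cell genes with a probe set lay below that line on every array, with means of 4.26 to 4.45 and 4.32 to 4.4964.

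Pan-leukocyte genes and most macrophage and dendritic cell genes were higher as well. Every 1 of 6 pan-leukocyte genes was higher, the median difference being 0.49. Of them 2 rose, Ptprc by 0.68 (limma adjusted p = 0.026) and Cd53 by 0.85 (0.013), where 1.41% of all kept probe sets did. Among all kept probe sets 23.7% had an unadjusted p under 0.05 in limma, in either direction, and all 6 of these genes did. Their mean was 7.17, 7.45, 7.41 and 7.25 on the pregnant and 6.69, 6.72, 6.79 and 7.08 on the pseudopregnant arrays, the highest pseudopregnant value being that of replicate 4, the array with the most Gzmb, Nkg7 and Il2rb in its group. Of 10 macrophage and dendritic cell genes tested, 6 rose, Adgre1 by 0.62, Itgax by 0.57, C1qb by 0.56, Cd68 by 0.48, C1qc by 0.45 and Mrc1 by 0.43 (limma adjusted p 0.012 to 0.045). Cd14 was lower, by -0.27 (limma adjusted p = 0.24), C1qa differed by 0.08, and Cd163 lay below the background line on all 8 arrays. The median was 0.44, and their mean was 6.95 to 7.08 on the pregnant and 6.66 to 6.74 on the pseudopregnant arrays. Without single arrays the pan-leukocyte and the macrophage count were each 1 to 3. Without the filter both were 1, and with a replicate block they were 1 and 2. Of the 11 uterine markers, 0 passed (limma; at an unadjusted p under 0.05 the muscle gene Myh11 was lower, by -0.22), and their median was -0.07. The part of the leukocyte level in the differences of the 10 genes was not tested.

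**Figure D4:**
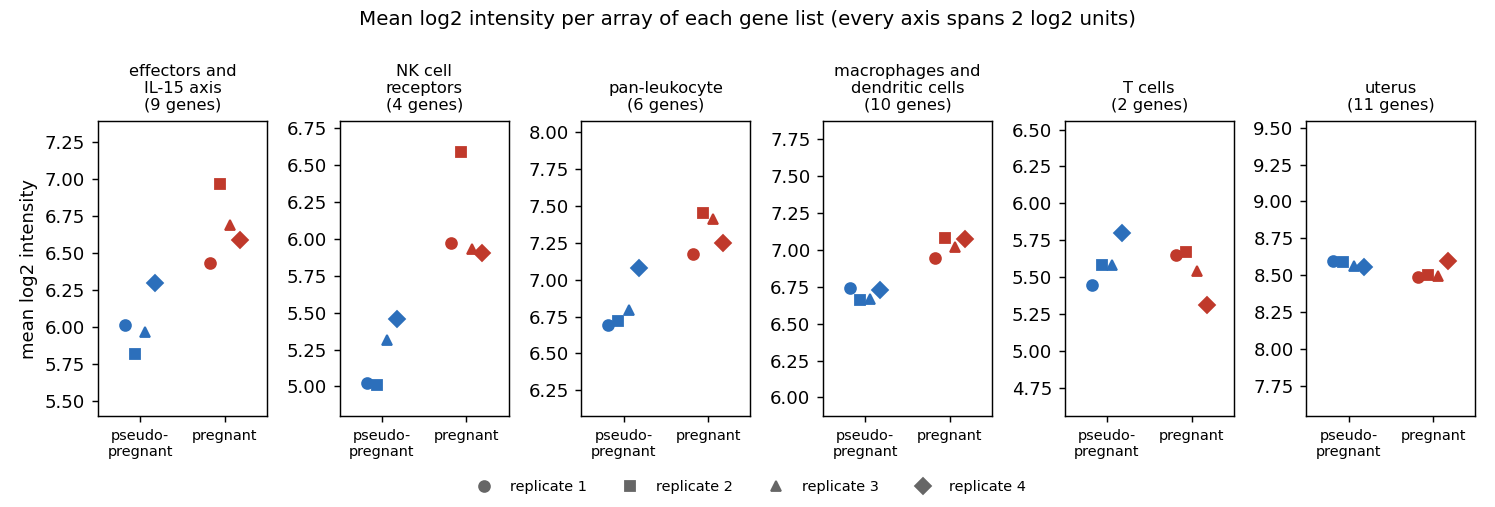
Mean log2 intensity of the kept genes of each list (vertical axis, each panel spanning 2 log2 units) on the 4 pseudopregnant (blue) and 4 pregnant (red) arrays, with a symbol for each replicate number. The NK receptor mean is 5.01 to 5.45 against 5.91 to 6.59, the pan-leukocyte mean 6.69 to 7.08 against 7.17 to 7.45, and the T cell means of the groups overlap. The NK receptor mean includes Klrd1, Ncr1 and Cd244a, which lay near background on pseudopregnant arrays.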

How the data were processed

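Total RNA of 8 uteri, extracted with Trizol and labelled with biotin per the labels' protocols, was read on expression arrays. The deposited values are linear intensities, 1 for each probe set and array, and per the submitters' processing notes the authors used RMA, which corrects background, gives all arrays 1 distribution and compresses changes near background. The sources used here do not give its version, settings or annotation build. Here log2 was taken. Of 35556 probe sets, the 6617 with identifiers below the first one that has a gene in the platform's table were left out, since that block held no gene. Of the other 28939, 21789 had 1 gene symbol, 1621 several and 5529 none. Kept were the 17491 above the 40th percentile of their array on at least 4 of 8 arrays. A gene with several probe sets was read from that with the highest mean over 8 arrays. A listed symbol that the table lacks was updated through RefSeq synonyms, and the gene numbers of 10 of the 10 genes matched RefSeq (GRCm38.p6).

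Groups were compared over all kept probe sets with limma 3.58.1 (lmFit, eBayes, a single group term, two-sided) in R 4.3.3, with Benjamini-Hochberg adjustment and a threshold of 0.05; SDs and SEs are on the log2 scale. "Rose" and "fell" mean past that threshold. The code was tested on simulated data. The 10 genes, the lists and the motifs were chosen with earlier results of these data known. Named were the 10 genes, in each of 3 pathway lists every gene past the threshold and otherwise up to 4 of smallest p, up to 3 of smallest p in each marker list, and the 5 genes nearest in profile to Gzmb and to Il15; genes given only as values or as lying below background were added to show the lists. The alternatives were no filter, the 60th percentile, median centring, repeated quantile normalization, averaged probe sets, array weights, the replicate number as a block and leaving out each array. Python 3.11.15 with matplotlib 3.10.9 searched the promoters and made the figures.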

Additional observations from a re-analysis of the deposited data

Results flagged for a closer look

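In 96 groups of 4 arrays (48 named genes, 2 groups each) 1 array lay far from the other 3 in 9, where chance gives about 1 in 20, or 4.8. Among the 10 genes these were Gzmb in pseudopregnant replicate 4, at 6.51 against 5.83 to 5.87 on the other 3, and Prf1 in pregnant replicate 1, at 6.17 against 6.31 to 6.32. The NK receptors Klra8 and Ncr1 stood out in pregnant replicate 2, at 7.24 against 6.34 to 6.35 and at 6.82 against 6.01 to 6.02, and Klra8 also in pseudopregnant replicate 3, at 5.68 against 5.50 to 5.52. The others were Myo1f in pseudopregnant replicate 4 (5.86, others 5.66 to 5.69), Prdm1 in pseudopregnant replicate 3 (7.94, others 7.59 to 7.63), Tox in pseudopregnant replicate 2 (6.18, others 5.99 to 6.02) and Des in pseudopregnant replicate 1 (9.86, others 10.14 to 10.18).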

How the results depend on the processing

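Over all kept probe sets 319 passed, 77.4% of them higher. The count was 54 without the intensity filter, 174 with a replicate block in the model and 40 to 235 without single arrays. The share of higher calls became 67.5% with a repeated quantile normalization (216 higher, 104 lower), and it was 60.5% without pregnant replicate 4 (52 higher, 34 lower), 67.5% without pseudopregnant replicate 1 (27 higher, 13 lower) and 65.1% without pseudopregnant replicate 4 (153 higher, 82 lower). Of the 10 genes, 3 passed with all arrays, 0 without the filter (9 of 10 at an unadjusted p under 0.05 in limma, as were 18% of all probe sets), 1 with the block and 0 to 4 without single arrays. With the filter at the 60th percentile 5 were tested and 3 passed, Gzmb, Nkg7 and Il2rb, while Prf1 fell below that filter. The granule list kept 1 call under the other alternatives and had 0 to 1 without single arrays. The IL-15 signalling list had 0 calls without the filter, 0 with the block and 0 to 1 without single arrays. The NK regulator list had 0 calls without the filter, with a repeated quantile normalization, with averaged probe sets and with the block. It had 2 with array weights and 0 to 1 without single arrays. Without single arrays, 3 to 5 of the 19 IL-15 signalling genes and 3 to 5 of the 13 regulators had an unadjusted p under 0.05 (limma). In those fits 17.9% to 23.4% of all kept probe sets did. Same-numbered arrays of the 2 groups had correlations of deviations of 0.245, 0.016, -0.103 and 0.044 for replicates 1 to 4. These values cannot settle whether the numbers pair the samples. More probe sets were adjusted for without the filter, and fewer arrays were used when 1 was left out. The cause of the changes in these counts was not tested. Genes near background, Gzma, Gzmc, Eomes, Tbx21, Klrd1, Ncr1, Cd244a and Txk among them, have differences of inexact size.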
